A study of Fragaria vesca with 8 samples.

Results

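The transcriptome of *F. vesca* fruits overexpressing *FvVND4c* was compared with that of fruits given the empty vector of the same experiment. The comparison rests on 4 of the 8 RNA-seq libraries of the series, 2 for FvVND4c overexpression and 2 for its own empty vector. All fruits were of the white-fruited accession "Yellow Wonder". The labels give the control fruits as wild type (WT). They received agrobacterium by syringe, carrying either *FvVND4c* under the constitutive CaMV 35S promoter or the vector alone, and both groups were collected 7 days later. Expression was therefore transient and not restricted to a cell type, and how many fruit cells took up the construct is not stated. The labels give at least 5 fruits for each treatment but not how they were divided between libraries. A p-value here therefore reflects only how far libraries of a group lay apart, which may be technical. The study's methods call the replicates biological but do not state how fruits were divided between them. In whole fruit, more cells of one type and more RNA per cell cannot be told apart.

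Vascular-related NAC domain proteins (VNDs) are plant transcription factors known from Arabidopsis as switches of vessel cell formation. They turn on MYB46 and MYB83, a second layer of regulators, and with them the enzymes that lay down cellulose, xylan and lignin in the secondary cell wall (SCW), as well as proteases of the cell death that empties a vessel cell. Lignin shares its precursors with flavonoids, which include the red anthocyanins of ripe fruit. The question of this comparison was how all genes of the fruit respond when such a factor is expressed outside vessels.

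Members were all genes with enough counts to be tested, which were 18766 of the 34009 genes listed. None of the identifiers in the count files was found among the 24946 genes of the reference table at hand, which belongs to another assembly. Names and functions are therefore not given below, and the overexpressed *FvVND4c*, markers of fruit tissue and lists of wall or flavonoid genes were not analysed here. Genes are described by their levels, the size of their change and their place in the genome, and 4 of them by identifier. The count totals ranged from 9765362 to 11884349 for these 4 libraries, so that 3 counts, taken as the floor for a gene without counts, correspond to 0.246 to 0.327 CPM (counts scaled to a common library total, with TMM factors). Genes were tested with edgeR's quasi-likelihood test, in which the FvMYB46 libraries contributed to the estimate of the spread but not to the contrast. A gene was called upregulated or downregulated where its p, adjusted after Benjamini-Hochberg, was under 0.05 and its log2 fold change was beyond 1 in either direction.

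Rises outnumbered falls upon FvVND4c overexpression. A total of 783 genes were upregulated (4.17% of those tested) and 209 were downregulated (1.11%), so that 992 genes were called (5.29%). Without the fold threshold, 1280 genes were higher (6.82%) and 480 were lower (2.56%). The median log2 fold change of all genes tested was -0.014, and 47.8% of them had a positive value. All 783 upregulated genes were higher in both FvVND4c libraries than in both empty-vector libraries, as were 28.2% of all genes tested. All 209 downregulated genes were lower in both, as were 28.6% of all genes tested. The gap between the nearest libraries of the groups exceeded 2-fold for 666 upregulated genes (85.1%) and for 145 downregulated genes (69.4%).

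**Figure D1:**
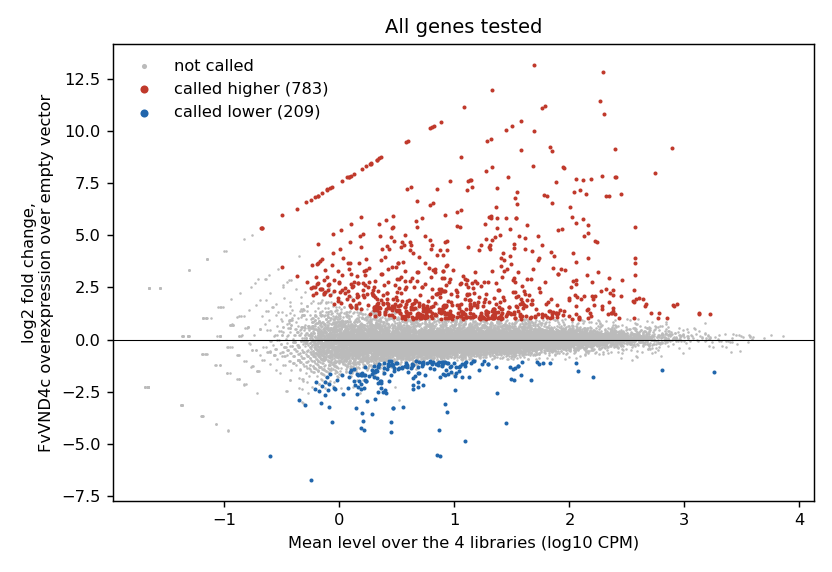
Log2 fold change upon FvVND4c overexpression against the mean level over the 4 libraries (log10 CPM), 1 point for each gene tested. The 783 upregulated genes (red) reach far larger changes than the 209 downregulated genes (blue). The straight upper edge holds genes without counts in the empty vector, whose fitted change depends on the prior count. A total of 60 genes without counts in these 4 libraries are not drawn.

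The upregulated genes covered a wider range of changes than the downregulated genes. Their log2 fold changes had a median of 2.17 when genes without empty-vector counts were set to the level of 3 counts, and 110 of them exceeded 5. The middle 50% of the fitted values lay between 1.41 and 3.90. For the downregulated genes the median was -1.56, the middle 50% lay between -2.12 and -1.23, and only 2 genes fell by more than 5 with silent genes set to the floor. The upregulated genes went from a median level of 2.53 to 15.4 CPM. The downregulated genes went from 5.31 to 1.74 CPM, and the median of all genes tested was 15.9 and 16.1 CPM. Both sets of called genes thus lay below the typical gene in control fruits, and upon overexpression the upregulated genes were close to it.

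Measured in counts, without regard to gene length, the upregulated genes took up a several-fold larger part of the FvVND4c libraries. Together they made up 1.49% and 1.52% of all counts in the empty-vector libraries, and 6.03% and 6.09% in the FvVND4c libraries. The downregulated genes together made up 0.697% and 0.649% with the empty vector and 0.218% and 0.218% with FvVND4c. The libraries of a group lay close together and the groups did not overlap. These sums are a description, because the genes were called on the same libraries. With TMM scaling, the upregulated genes summed to 14225 and 14802 CPM with the empty vector against 61425 and 64763 CPM with FvVND4c.

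The summed rise in CPM came from genes of all starting levels. Among the upregulated genes, 259 (33.1%) stood under 1 CPM with the empty vector. Their median log2 fold change was 3.69, and they supplied 10.8% of the summed rise of 48580 CPM. The 28 genes (3.58%) that already stood at 100 CPM or more had a median log2 fold change of 1.40 and supplied 28.4% of the rise. The remaining rise came from 325 genes between 1 and 10 CPM (28.6%) and 171 genes between 10 and 100 CPM (32.2%). The starting level is part of each fold change, so the larger changes of the lowest genes are not independent of this grouping. The rise was spread over many genes, with 44 genes needed for 50% of it and 31.7% supplied by the 20 largest rises.

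The summed loss was small and concentrated. It came to -4215 CPM over the 209 downregulated genes, of which the 20 largest falls made up 78.8%. Only 5 downregulated genes stood at 100 CPM or more with the empty vector, and these carried 65.3% of the loss. The 139 downregulated genes between 1 and 10 CPM, which were 66.5% of the set, carried 9.13%. Only 3 downregulated genes stood under 1 CPM with the empty vector.

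**Figure D2:**
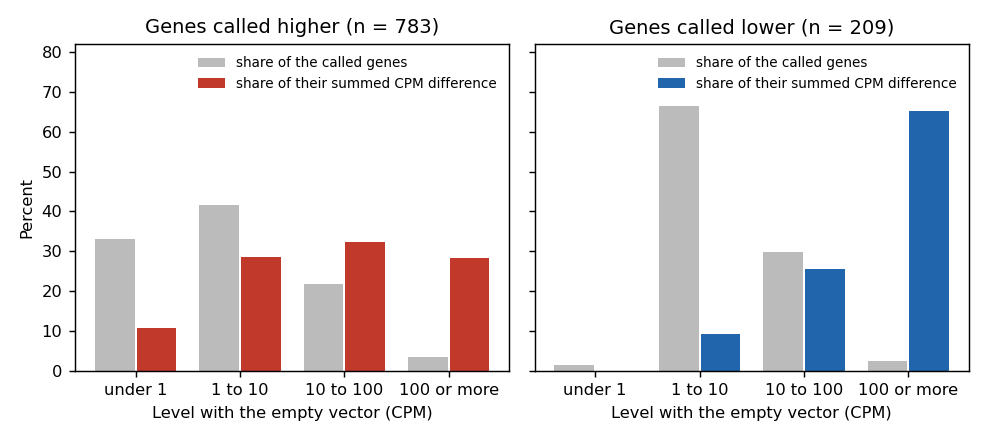
Share of the called genes (grey) and share of their summed CPM difference between the groups (colour), by the mean level with the empty vector in CPM, for upregulated (left) and downregulated genes (right). Genes under 1 CPM are 33.1% of the upregulated set and supply 10.8% of its rise, while 5 genes of 100 CPM or more carry 65.3% of the loss.

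Some of the called genes were among the most abundant genes. Of the 500 genes with the highest level per kilobase of gene span, 14 of those ranked in the empty-vector libraries and 58 of those ranked in the FvVND4c libraries were upregulated genes. Downregulated genes accounted for 2 of the 500 in either ranking. Over all genes tested, 4.17% were upregulated and 1.11% were downregulated. Because the genes were called on the same libraries, a larger number of upregulated genes in the FvVND4c ranking follows from the call.

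The gene with the largest rise in CPM was FvH4_2g16940 on chromosome 2, from 14707578 to 14709401 on the plus strand of the v4.0.a2 genome. It had 2.84 and 2.46 CPM in the empty-vector libraries and 1449.8 and 1669.8 CPM in the FvVND4c libraries. The group means were 2.65 ± 0.267 and 1559.8 ± 156 CPM (SD, n = 2 each), a 589-fold difference. The fitted log2 fold change was 9.20 ± 0.28 (standard error) with an adjusted p of 7.23e-09 in edgeR. It thereby moved from rank 14175 to rank 33 of all genes by level per kilobase of span. In the FvMYB46 experiment the same gene stayed low, at 2.32 ± 1.70 CPM with the empty vector and 2.68 ± 0.0657 CPM with FvMYB46 (SD, n = 2 each). The difference between the responses to the constructs was 8.98 on the log2 scale (adjusted p = 5.55e-06 from edgeR). Whether this gene is the overexpressed *FvVND4c*, whose transcripts from the construct would be counted with those of the fruit's own copy, was not tested. This gene alone supplied 3.21% of the summed rise, and the other 782 upregulated genes still went from 1.49% and 1.52% to 5.89% and 5.93% of all counts.

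The next largest rise in CPM was that of a gene that was already abundant. FvH4_2g23190, on chromosome 2 from 19011340 to 19013400 on the minus strand, had 1057 and 910.2 CPM with the empty vector and 2234 and 2412 CPM with FvVND4c. The means were 984 ± 104 and 2323 ± 126 CPM (SD, n = 2 each), and the log2 fold change was 1.24 ± 0.33 (standard error) with an adjusted p of 0.0427 in edgeR. The groups did not overlap. With edgeR on these 4 libraries alone the adjusted p was 3.39e-04, and with the replicate number as a block it was 0.00255. In the main fit, whose spread came from all 8 libraries, the call was close to the threshold. It was lost without any one of the 4 libraries in turn, with adjusted p from 0.0698 to 0.229 and log2 fold changes from 1.14 to 1.35. In the FvMYB46 experiment the empty-vector libraries themselves held 2036 and 817 CPM of this gene, and the difference between the responses to the constructs did not pass the test (1.21 on the log2 scale, adjusted p = 0.112 from edgeR). The 18 genes that followed in the ranking rose by between 1136 and 491 CPM.

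The largest fall in CPM was that of FvH4_2g21400, on chromosome 2 from 17800149 to 17802240 on the plus strand. It had 2849 and 2593 CPM in the empty-vector libraries and 899.6 and 953 CPM in the FvVND4c libraries. The means were 2721 ± 181 and 926 ± 38 CPM (SD, n = 2 each), and the log2 fold change was -1.55 ± 0.28 (standard error) with an adjusted p of 0.00479 in edgeR. By level per kilobase of span it ranked 15th with the empty vector and 82nd with FvVND4c. This gene alone carried 42.6% of the summed loss. Its call was kept without any one library, with adjusted p from 0.0244 to 0.0427. It fell upon FvMYB46 overexpression as well (log2 fold change -2.09, adjusted p = 2.89e-04 from edgeR). There the empty-vector libraries held 4569.8 and 2764 CPM and the FvMYB46 libraries 1126 and 599.8 CPM. The difference between the responses did not pass the test (0.53 on the log2 scale, adjusted p = 0.391 from edgeR).

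FvH4_3g19080, on chromosome 3 from 12281190 to 12282677 on the minus strand, showed the next largest fall. Its empty-vector libraries held 889.8 and 961 CPM and its FvVND4c libraries 284 and 398 CPM. The means were 925 ± 50.4 and 341 ± 80.5 CPM (SD, n = 2 each), and the log2 fold change was -1.44 ± 0.33 (standard error) with an adjusted p of 0.0175 in edgeR. Without any one of the 4 libraries the call was lost, with adjusted p from 0.0509 to 0.0942 and log2 fold changes from -1.71 to -1.20. It fell by 2.42 on the log2 scale with FvMYB46 (adjusted p = 3.22e-04 from edgeR), and the responses to the constructs differed by 0.97 on the log2 scale, which did not pass the test (adjusted p = 0.18 from edgeR). Together with FvH4_2g21400 this gene made up over 50% of the summed loss. The 18 falls that followed were between -177 and -27.5 CPM.

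**Figure D3:**
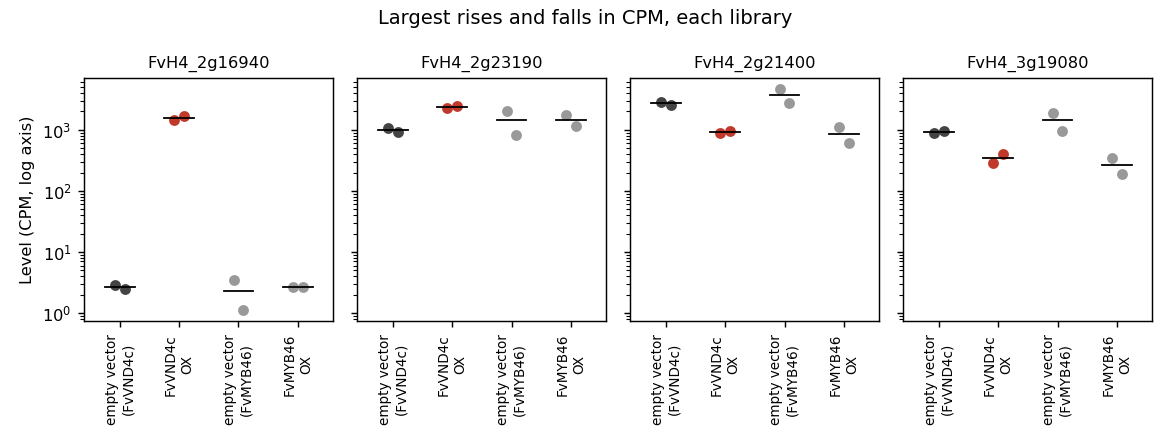
Level of the genes with the 2 largest rises and the 2 largest falls in CPM, in each of the 8 libraries on a log axis, with a bar at the group mean (n = 2). FvH4_2g16940 stands at 1449.8 and 1669.8 CPM upon FvVND4c overexpression (OX, red) and at or below 3.52 CPM in the other 6 libraries, whereas the other genes change from a high level.

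A part of the response consisted of genes that were silent or nearly so in control fruits. Of the upregulated genes, 92 (11.7%) had 3 or fewer counts in the empty-vector libraries together, compared with 295 (1.57%) of all genes tested. This difference is partly set in advance, because a low control level raises the fold change. Genes so low with the empty vector were also tested only where other libraries held enough counts. A further 10536 genes without empty-vector counts were not tested. Of the 92 genes, 39 had no empty-vector count, and with FvVND4c they reached between 0.416 and 99.2 CPM, with a median of 2.53 CPM. Set against 3 counts over both empty-vector libraries (0.126 CPM), they were at least 3.3-fold to at least 788-fold higher, and 31 were at least 10-fold higher. The floor covers counting error only. The number of upregulated genes without an empty-vector count depended on the processing, at 18 with limma on log2(TPM + 1), 20 on log2(TPM + 0.1) and 19 in a fit of only the genes of the TPM files. It was 0 by construction with at least 10 counts in every library, and 31 to 46 under the other 12 alternatives. The opposite change was rare among the genes called, since 2 downregulated genes had no count with FvVND4c, and these had stood at 0.498 and 1.13 CPM. Among all genes tested, 121 had no count with the empty vector and 94 had none with FvVND4c, and counts in both libraries of the other group were found for 50 and 13 of them.

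Upregulated genes were short. Their median span from start to end, introns included, was 2083 bp, compared with 2450 bp for the downregulated genes and 3220.5 bp for all genes tested. When the genes tested were divided by span into 5 groups of about equal size, 8.47% of the shortest (201 to 1795 bp) and 1.84% of the longest (5377 to 41652 bp) were upregulated, with 5.03%, 3.22% and 2.29% in between. For the downregulated genes the shares were 1.70% and 0.56%, with 1.46%, 0.773% and 1.07% in between. Short genes also had lower levels, with an empty-vector median of 4.52 CPM in the shortest and 39.9 CPM in the longest group. Among the 7963 genes with a mean of 3 to 30 CPM over the 4 libraries, 9.96% of the shortest and 1.97% of the longest group were still upregulated, although the empty-vector medians were now 8.26 and 13.9 CPM. The downregulated shares among these genes were 1.46% and 0.789%, with 1.55%, 0.735% and 1.12% in between. The transcript length without introns was not analysed here.

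**Figure D4:**
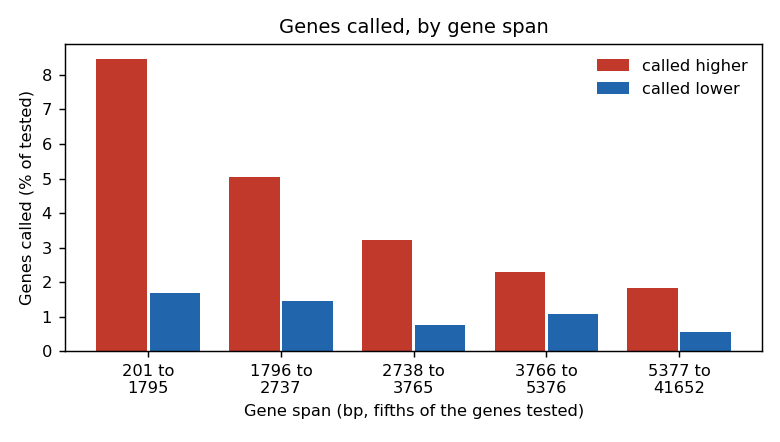
Share of the genes tested that were upregulated (red) or downregulated (blue) upon FvVND4c overexpression, in 5 groups of about equal size by gene span in bp. The upregulated share is 8.47% for the shortest and 1.84% for the longest genes.

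The shares differed little between chromosomes. The upregulated share ranged from 3.65% of the genes tested on chromosome 7 to 4.54% on chromosome 5, and the downregulated share from 0.84% on chromosome 5 to 1.35% on chromosome 1. Within chromosomes, upregulated genes often lay side by side. An immediate neighbour, up or down the chromosome, was upregulated as well for 132 of the 783 upregulated genes (16.9%), compared with 4.95% of all genes tested that had an upregulated neighbour. For the downregulated genes, 15 of 209 (7.18%) had a downregulated neighbour, against 1.27% of all genes tested. In contrast, 8 upregulated genes (1.02%) lay beside a downregulated gene, close to the 1.27% of all genes tested. Of the 73 neighbouring pairs in which both genes were upregulated, 48 (65.8%) were on the same strand, compared with 53.6% of the 11805 neighbouring pairs tested. Similar sequence between neighbours, which could let reads be assigned to the wrong copy, was not tested. The spans of 91 upregulated genes (11.6%) and 16 downregulated genes (7.66%) overlapped that of another gene, compared with 14.3% of all genes tested. Of these, 79 upregulated and 15 downregulated genes overlapped a gene on the opposite strand, as did 2293 of all 18766 genes tested. Reads of such overlapping genes could not be told apart without the strand setting. Reads shared by genes on the same strand cannot be told apart by strand at all.

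Runs of at least 3 upregulated genes, with no more than 1 other gene between them, were found at 11 places and held 45 genes. The longest, on chromosome 5 from 1987912 to 2028157, held 13 upregulated genes among 15 consecutive genes, 8 on the plus and 5 on the minus strand. Their summed level was 42.5 and 44.1 CPM in the empty-vector libraries and 135 and 150.4 CPM in the FvVND4c libraries. Each of the 13 had an adjusted p of 0.0082 or lower from edgeR, where only called genes could enter a run. Single genes of the run had log2 fold changes from 1.10 to 5.92 with FvVND4c. In the FvMYB46 experiment the 13 genes summed to 63.1 and 66.4 CPM with the empty vector and 102 and 109 CPM with FvMYB46. Without this run, 120 of 770 upregulated genes (15.6%) still had an upregulated neighbour.

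**Figure D5:**
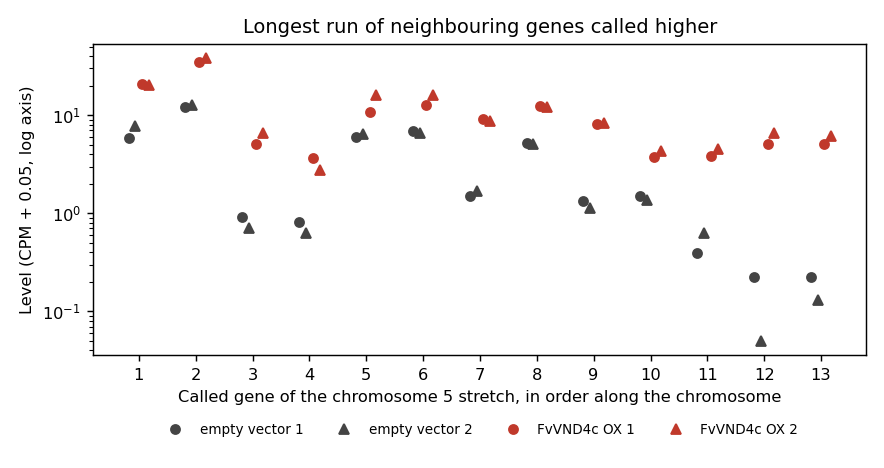
Level of the 13 upregulated genes of the chromosome 5 run in the 4 libraries, in their order along the chromosome, as CPM plus 0.05 on a log axis. Both FvVND4c libraries (red) lie above both empty-vector libraries (grey) for each gene, as they did for every upregulated gene. The genes differ in their starting level from 0.086 to 12.4 CPM.

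Among the 10 shorter runs, 2 summed to less than 1 CPM in both empty-vector libraries. Of the 3 genes on chromosome 7 from 20689307 to 20704729, all on the minus strand, the empty-vector libraries held 0.344 and 0.656 CPM in sum and the FvVND4c libraries 44.5 and 40.3 CPM. On chromosome 1 from 2520211 to 2527610, 3 adjacent genes of 1328 to 1381 bp went from 0.258 and 0.164 to 16.0 and 13.7 CPM in sum. In the FvMYB46 experiment the chromosome 7 run went from 0.335 and 0.0799 to 3.32 and 3.05 CPM in sum. The chromosome 1 run went from 0.0837 and 0.16 to 25.4 and 25.5 CPM there. All 6 genes of these 2 runs had passed the test by the definition of a run. Their adjusted p was at most 0.00259 and 0.00176 from edgeR in the respective run. The other 8 had sums of at least 2.24 CPM in control fruits. One of them held 3 long genes (6015 to 7943 bp) on chromosome 5 from 24815344 to 24839109, with empty-vector means from 0.086 to 8.6 CPM, so that 1 gene carried nearly all of the control level. The sum of the 3 was 8.94 and 9.11 CPM with the empty vector and 123 and 78.6 CPM with FvVND4c, so the FvVND4c libraries differed here but did not come near the empty vector. In the FvMYB46 experiment this sum was 11.6 and 3.52 CPM with the empty vector and 1.45 and 1.95 CPM with FvMYB46. The one run of downregulated genes, 3 on the minus strand of chromosome 6 from 27042814 to 27047865, went from 54.1 and 47.0 to 23.2 and 13.8 CPM in sum.

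The FvVND4c libraries differed from each other more than the empty-vector libraries did. Across genes with a mean of at least 10 CPM, the log2 ratio of the replicates had an SD of 0.282 for FvVND4c and 0.155 for the empty vector, and 112 and 3 of 11185 genes differed over 2-fold between replicates. Between the FvVND4c libraries, 397 of all genes tested (2.12%) and 6 upregulated genes (0.766%) were over 2-fold apart, but the call itself favours genes with a small spread between replicates. For the downregulated genes, 7 (3.35%) were over 2-fold apart between the FvVND4c libraries and 1 (0.478%) between the empty-vector libraries.

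A larger share of the upregulated than of the downregulated set was called again when single libraries were left out. All 4 such fits called 509 of the 783 upregulated genes (65%), whereas 66 of the 209 downregulated ones (31.6%) passed in all 4. Without empty-vector replicate 1 or 2, 91 or 110 genes were downregulated, and without FvVND4c replicate 1 or 2 the numbers were 482 or 113. The upregulated genes numbered 564 to 769 in these fits. When calls by DESeq2 on 8 and on 4 libraries, by edgeR on the 4 libraries, with RLE scaling and with the replicate number as a block were required in addition, 505 upregulated and 65 downregulated genes remained. The 505 had a median log2 fold change of 2.83 and went from a median of 3.26 to 29.7 CPM, and 29 of them had no empty-vector count. The 65 had a median log2 fold change of -1.80 and went from 13.9 to 3.89 CPM.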

How the data were processed

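The authors trimmed reads with fastp 0.20.1, mapped them to *F. vesca* v4.0.a2 with HISAT2 2.2.1, removed PCR duplicates with SAMtools 1.9 and counted reads per gene with featureCounts 2.0.3. The deposited count files hold whole counts for 34009 genes. The deposited TPM files hold 17698 genes, and each TPM value was found to be the count divided by gene span and rescaled to a fixed sum. The strand setting and the TPM filter are not given in the sources used here.

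Counts were fitted with edgeR 4.0.16 (limma 3.58.1, R 4.3.3) using filterByExpr, TMM scaling and the quasi-likelihood test, with a mean for each of the 4 groups of all 8 libraries. The standard error is the log2 fold change over the square root of F. With 2 libraries against 2, a single-gene permutation test cannot go below p = 0.333, so none was made. DESeq2 1.42.0, limma on log2 TPM with a pseudocount of 1 or 0.1, and the other alternatives are given in the closing section.

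Identifiers are printed for 4 genes, those with the 2 largest rises and 2 largest falls in mean CPM among called genes whose groups did not overlap. Members, lists and rules were chosen with earlier results of these data known. Shares by level use the mean of the 4 libraries or, where stated, the empty-vector mean. The study's methods state more replicates, which they call biological, than the 2 per group that the labels list.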

Additional observations from a re-analysis of the deposited data

How the results depend on the processing

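The 783 upregulated genes were between 522 and 955 under 15 of 16 alternatives and 1280 with no fold threshold. The 209 downregulated genes were 164 to 274 under 7 alternatives. They were 128 with DESeq2 on all 8 libraries, 121 with DESeq2 on the 4 libraries, 117 with at least 10 counts in every library, 426 with unadjusted p, 480 with no fold threshold and 91 to 482 without one library in turn. No result changed direction. Fitting only the genes of the TPM files, chosen after seeing the data, gave 706 and 186. The replicate numbers are shared by the groups but nothing in the labels pairs them. The deviations of same-numbered libraries had a correlation of 0.243 across genes between the 2 groups, and with the replicate block 827 genes were upregulated and 274 downregulated, including 778 of the 783 and all 209. The share of upregulated genes with an upregulated neighbour was 10.3% with at least 10 counts in every library, 13.7% with limma on log2(TPM + 0.1) and 14.4% to 18.9% otherwise. The call of FvH4_2g23190 was also lost with DESeq2 on all 8 libraries (adjusted p = 0.102), with no filter on low counts (edgeR adjusted p = 0.0906) and with at least 10 counts in every library (edgeR adjusted p = 0.0573), and with limma on log2(TPM + 1) or log2(TPM + 0.1), at adjusted p of 0.13 and 0.137. Of 15 alternatives with an adjusted p, 9 lost this call and 6 kept it. Kept calls came from edgeR and DESeq2 on the 4 libraries, RLE scaling, no fold threshold, the replicate block and genes of the TPM files. At this depth, a gene without counts in a library could still stand at up to 0.246 to 0.327 CPM.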

Other observations

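Genes with too few counts to be tested can still be counted. Of the 15243 genes not tested, 228 had counts in both FvVND4c libraries and none with the empty vector, and 270 had counts in both empty-vector libraries and none with FvVND4c. Of the genes tested, 17 lie on unplaced contigs, and 2 of these were upregulated.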
